A study of Arabidopsis thaliana with 8 samples.

Results

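The genes described here are 8 loci of stomatal guard cells, chosen by locus from all 32833 loci listed, and each of them had enough reads to be tested among 21202 genes. They are the potassium channel genes KAT1, KAT2 and GORK, the anion channel genes SLAC1 and ALMT12, the protein kinase genes OST1 and HT1, and the transcription factor gene MYB60. Floral stems of Arabidopsis thaliana, accession Col-0 (Columbia-0), grown in 16 h days, gave 8 mRNA sequencing libraries in 4 groups of 2 labelled biological replicates. Wild type (WT) and msh1 plants each gave libraries labelled Total and libraries labelled TRAP. TRAP, translating ribosome affinity purification, recovers RNA bound to ribosomes that carry a tagged ribosomal protein, here FLAG::RPL18 expressed from the promoter of MSH1, a gene for an organelle DNA repair protein. The msh1 allele, the stem cells in which the MSH1 promoter is active, the plant age and any tag in the Total plants are not stated in the labels used here. Because nothing ties a library to separate plants beyond the word biological, the p-values measure the spread between these libraries.

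Guard cells open and close the stomatal pore by moving potassium, chloride, nitrate and malate across their membranes. KAT1 and KAT2 carry potassium in during opening, and GORK carries it out during closure. SLAC1 and ALMT12 (also called QUAC1) release anions during closure, SLAC1 slowly and ALMT12 rapidly. OST1, a SnRK2 kinase freed from repression when abscisic acid (ABA) binds its receptors, phosphorylates SLAC1, whereas HT1 is a kinase of the response to CO2 that favours open stomata. MYB60 is a guard cell transcription factor whose loss narrows stomatal opening in light. Stems bear stomata on their epidermis, so in RNA of a whole stem or of a cell class, fewer guard cells and less RNA per guard cell cannot be told apart.

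Per library, reads counted in genes numbered 7568728 to 13611280, and no library duplicated another. The TRAP replicates were further apart than the Total replicates, with a robust SD of the log2 difference between replicates of 0.42 in msh1 TRAP and 0.30 in WT TRAP, against 0.17 in WT Total and 0.20 in msh1 Total, over 15951 genes averaging 5 CPM or more (CPM, read counts scaled to library size after TMM normalisation). RPL18 itself stood at 849 and 1862 CPM in the msh1 TRAP libraries and between 269 and 344 CPM in the other 6. It was no higher in WT TRAP (278 and 269 CPM) than in WT Total (293 and 273 CPM). Between the msh1 TRAP libraries it differed 2.19-fold, and only 2.02% of genes differed as much. In the TRAP libraries RPL18 level thus differed with genotype, and its part in the results below was not tested. The MSH1 transcript was higher in the libraries labelled msh1, at 22.5 to 36.3 CPM against 9.27 to 14.0 CPM in WT, and, with the allele not given, does not check the genotype label. The 5 seed storage and oil body markers together reached 2059 and 1681 CPM in the libraries of WT Total, 727 and 1646 in those of WT TRAP, 92.0 and 225 in those of msh1 Total and 45.4 and 31.7 in those of msh1 TRAP, so seed transcripts were present in samples labelled floral stem and differed with genotype. The part of that difference in the results below was not tested. Other guard cell markers were present in every library, among them the guard cell fate regulator FAMA, at 9.07 to 14.4 CPM.

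Per length, GORK was the most abundant of the 8 transcripts in WT Total, at 13.0 ± 0.248 CPM per kb of exon (SD, n = 2), followed by OST1 at 8.11 ± 0.069, KAT1 at 4.85 ± 0.873, SLAC1 at 4.002 ± 0.359, MYB60 at 3.39 ± 0.188, ALMT12 at 2.54 ± 0.182, KAT2 at 1.89 ± 0.505 and HT1 at 1.65 ± 0.171. KAT1 and SLAC1, and KAT2 and HT1, overlapped in that order. The order changed in WT TRAP, where SLAC1 at 7.16 ± 1.06 CPM per kb stood above OST1 at 5.78 ± 0.139, and in msh1 TRAP, where KAT2 was lowest of the 8 at 0.468 ± 0.0858 CPM per kb. Raw counts ranged from 10 for KAT2 in msh1 TRAP 2 to 692 for GORK in WT Total 2, and 3 counts stood for 0.207 to 0.385 CPM per library.

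**Figure D1:**
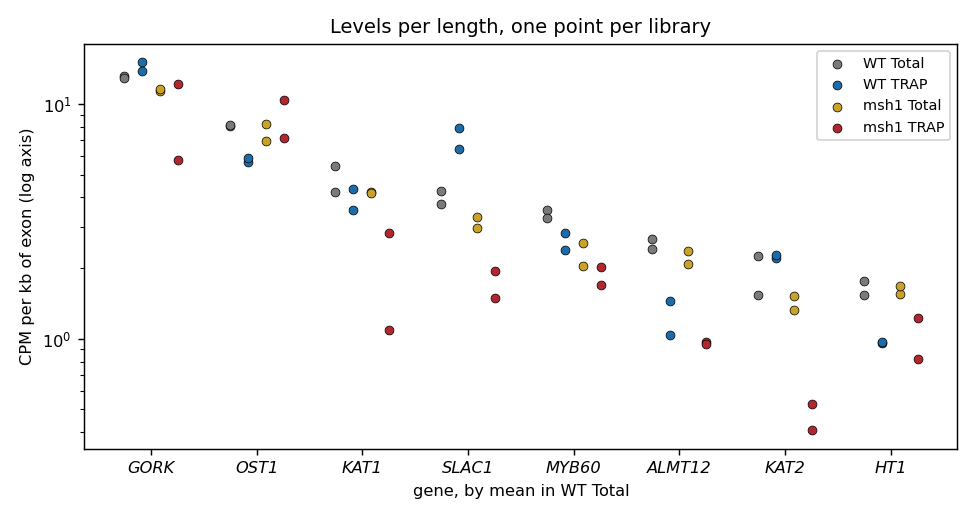
Level per length of each guard cell gene (CPM per kb of exon, log axis), one point per library, genes ordered by their mean in WT Total. GORK leads in WT Total at 13.0 CPM per kb, SLAC1 rises in WT TRAP to 7.16, and KAT2 is lowest in msh1 TRAP at 0.468.

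Across the 5 contrasts tested, SLAC1 and KAT2 changed most: ribosome-bound RNA of both was about 4-fold or more lower in msh1 than in WT, while neither passed the test between genotypes in Total RNA. In TRAP RNA, 4 of the 8 genes were lower in msh1 (KAT2, SLAC1, KAT1 and GORK) and 1 was higher (OST1), by edgeR at an adjusted p below 0.05. Of all genes tested, 41.6% passed in that contrast, 20.8% higher and 20.8% lower, so 5 of 8 is not far from the background. In msh1, 4 of the 8 (KAT2, ALMT12, KAT1 and SLAC1) were lower in TRAP than in Total and 0 were higher, against 26.2% of all genes called (14.1% higher, 12.1% lower). In WT, 1 of 8 (SLAC1) was higher in TRAP than in Total and 0 lower, against 5.07% of all genes called (3.41% higher, 1.67% lower). The interaction of genotype with fraction (msh1 effect in TRAP less the msh1 effect in Total) was called for 2 of 8 (KAT2 and SLAC1, both negative), against 15.6% of all genes (9.01% positive, 6.61% negative). In Total RNA, edgeR called 0 of 8 between msh1 and WT, where 3.89% of all genes passed (0.821% higher, 3.07% lower). None of the 8 had an unadjusted p below 0.05 there by edgeR or by DESeq2, and DESeq2 also called 0. All 8 log2 fold changes lay below 0 in that contrast, between −0.56 and −0.03, with a median of −0.19 beside 0.00 for all genes.

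The medians of the 8 log2 fold changes were −0.34 for WT TRAP over WT Total, −0.77 for msh1 TRAP over msh1 Total and −0.58 for msh1 TRAP over WT TRAP, where the medians of all genes tested were −0.06, −0.03 and −0.02. These contrasts share groups, so their values are given side by side and are not independent. Counts of the 8 genes with a library left out follow. The number of all genes called moved as well, over the ranges given in the closing section. The counts below therefore do not separate the 8 genes from a general change in calls. The count of 5 in msh1 TRAP against WT TRAP was 3 without WT Total 1, without WT Total 2 or without WT TRAP 1, and 2 without WT TRAP 2 or without msh1 TRAP 2. The count of 4 in msh1 TRAP against msh1 Total fell to 1 when msh1 Total 1 was left out, to 0 for msh1 Total 2 and to 2 for msh1 TRAP 2. The single call in WT was lost without each of 6 libraries, named with SLAC1 below, and 2 genes were called without msh1 TRAP 1. The interaction count of 2 became 1 without WT Total 2, WT TRAP 2 or msh1 Total 2, and 5 without msh1 TRAP 1.

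**Figure D2:**
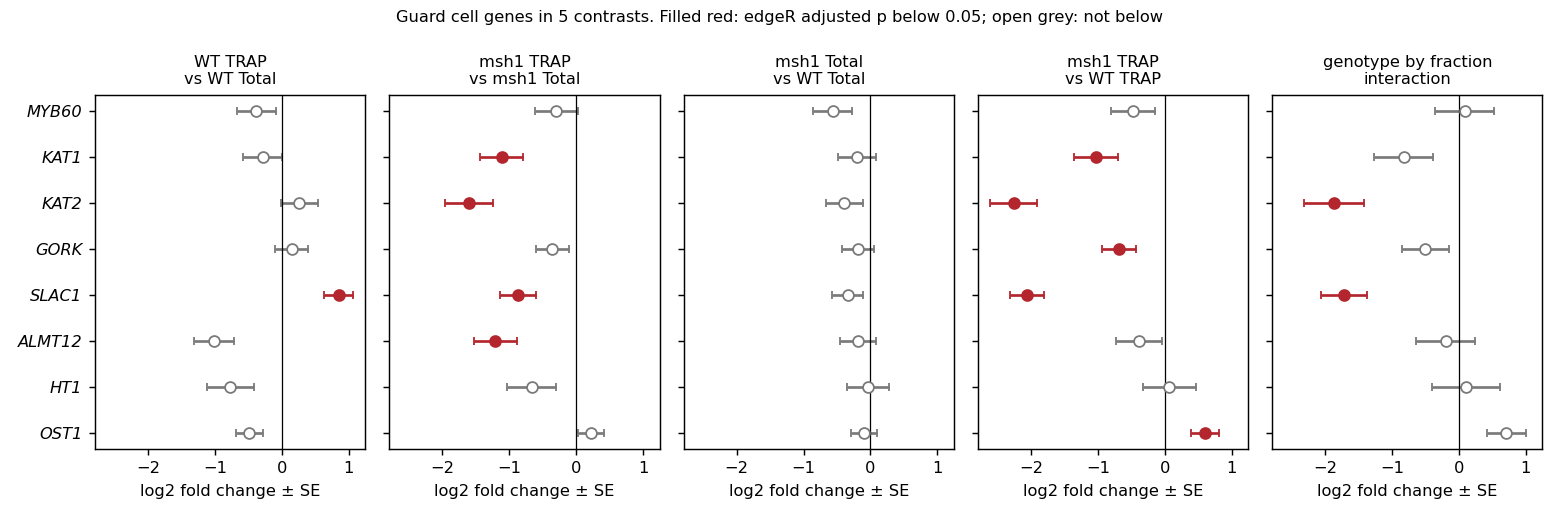
Log2 fold change with its SE (horizontal bars) of each guard cell gene in the 5 contrasts, from 1 edgeR fit of 8 libraries; filled red points have an adjusted p below 0.05. KAT2 and SLAC1 lie farthest below 0 in msh1 TRAP against WT TRAP, at −2.26 and −2.06, and no point is filled for msh1 Total against WT Total.

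KAT2 (AT4G18290, chromosome 4, 10114794 to 10118652, plus strand, TAIR10.1), an inward potassium channel gene, was lowest in the ribosome-bound RNA of msh1. WT Total libraries held KAT2 at 6.49 and 4.42 CPM, those of WT TRAP at 6.42 and 6.59, those of msh1 Total at 3.83 and 4.42 and those of msh1 TRAP at 1.53 and 1.18 CPM. Both msh1 TRAP libraries lay below the other 6, which overlapped one another in part. KAT2 was 4.79-fold lower in msh1 TRAP than in WT TRAP (log2 fold change −2.26 ± 0.35, SE, edgeR adjusted p = 0.000374) and 3.05-fold lower in msh1 TRAP than in msh1 Total (−1.61 ± 0.36, edgeR adjusted p = 0.00682). The interaction was −1.87 ± 0.45 (edgeR adjusted p = 0.0177), while the other contrasts did not pass, at 0.26 ± 0.28 for WT TRAP over WT Total and −0.39 ± 0.28 for msh1 Total over WT Total. The fall against WT TRAP passed under all 15 alternatives, at an adjusted p up to 0.00511. That against msh1 Total ended without msh1 Total 2 (edgeR adjusted p = 0.0517, in a range of 0.000393 to 0.0517), and the interaction ended without WT Total 2 (0.0847), WT TRAP 2 (0.0562) or msh1 Total 2 (0.0727) and with a trend on transcript length removed (0.0562), in a range of 0.00224 to 0.0847.

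KAT1 (AT5G46240, chromosome 5, 18743510 to 18747406, minus strand), an inward potassium channel gene closely related to KAT2, was also lower in msh1 TRAP, but its msh1 TRAP libraries were far apart. The WT Total libraries had KAT1 at 16.5 and 12.8 CPM, those of WT TRAP at 10.6 and 13.2, those of msh1 Total at 12.8 and 12.6 and those of msh1 TRAP at 8.54 and 3.30 CPM. Both msh1 TRAP values were below all others, and only 1.04% of genes differed as much between the msh1 TRAP replicates. KAT1 was 2.04-fold lower in msh1 TRAP than in WT TRAP (log2 fold change −1.03 ± 0.33, edgeR adjusted p = 0.026) and 2.16-fold lower than in msh1 Total (−1.11 ± 0.33, edgeR adjusted p = 0.0254). The first call ended without msh1 TRAP 2 (−0.54, edgeR adjusted p = 0.124) or WT TRAP 2 (−0.84, 0.164) and with the length trend removed (−0.62, 0.143), in a range of 0.000282 to 0.164. The second ended without msh1 TRAP 2 (−0.58, 0.128), msh1 Total 1 (0.0854) or msh1 Total 2 (0.0913), with the length trend removed (0.0561) and with only the groups compared in the fit (0.0739), in a range of 6.99e-05 to 0.128. The interaction, −0.82 ± 0.44, did not pass (edgeR adjusted p = 0.226), and passed without msh1 TRAP 1 (−1.62, 0.00717).

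GORK (AT5G37500, chromosome 5, 14889245 to 14895233, minus strand), the outward potassium channel gene, was called in 1 of the 5 contrasts. Libraries of WT Total showed GORK at 49.1 and 47.8 CPM, those of WT TRAP at 55.9 and 51.4, those of msh1 Total at 42.4 and 43.1 and those of msh1 TRAP at 45.4 and 21.5 CPM. The last library alone was low, and the groups msh1 TRAP and msh1 Total overlapped. Against WT TRAP, msh1 TRAP was 1.61-fold lower (log2 fold change −0.68 ± 0.25, edgeR adjusted p = 0.0441). This call did not hold without msh1 TRAP 2 (−0.29, edgeR adjusted p = 0.139) or with the length trend removed (−0.16, 0.608), and ended without each other library except msh1 TRAP 1, at an adjusted p of 0.0573 to 0.157, in a range of 0.000125 to 0.608. Against msh1 Total the value was −0.36 ± 0.25 (edgeR adjusted p = 0.315), which moved to −0.91 without msh1 TRAP 1 (0.00144) and, with msh1 TRAP 2 left out instead, to 0.07 (0.752). The interaction, −0.50 ± 0.35, was −1.10 without msh1 TRAP 1 (edgeR adjusted p = 0.00252).

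SLAC1 (AT1G12480, chromosome 1, 4257268 to 4259300, minus strand), the slow anion channel gene, had its highest level in WT TRAP and its lowest in msh1 TRAP. WT Total libraries held SLAC1 at 8.01 and 7.05 CPM, those of WT TRAP at 12.1 and 14.9, those of msh1 Total at 5.599 and 6.23 and those of msh1 TRAP at 2.803 and 3.65 CPM. None of the 4 groups overlapped another. In msh1 TRAP it was 4.17-fold lower than in WT TRAP (log2 fold change −2.06 ± 0.25, edgeR adjusted p = 9.55e-05) and 1.83-fold lower than in msh1 Total (−0.87 ± 0.26, edgeR adjusted p = 0.0296), whereas in WT it was 1.8-fold higher in TRAP than in Total (0.85 ± 0.22, edgeR adjusted p = 0.0455). The interaction was −1.72 ± 0.34 (edgeR adjusted p = 0.00783). The msh1 difference in TRAP and the interaction passed under all alternatives tried, at an adjusted p up to 0.00266 and 0.0458. The rise in WT ended without WT Total 1 (0.94, edgeR adjusted p = 0.234), WT Total 2 (0.76, 0.336), WT TRAP 1 (0.99, 0.0676), WT TRAP 2 (0.74, 0.218), msh1 Total 1 (0.85, 0.0793) or msh1 Total 2 (0.85, 0.0798) and with DESeq2 (0.0781), in a range of 0.0137 to 0.336. The fall against msh1 Total ended without msh1 Total 1 (−0.94, 0.079), msh1 Total 2 (−0.79, 0.154) or msh1 TRAP 1 (−0.62, 0.132), with DESeq2 (0.0807) and with only the groups compared (0.0797), in a range of 0.00795 to 0.154.

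The SLAC1 count is uncertain, because the lncRNA locus AT1G04953 lies inside it on the plus strand and shares all of its 683 exon bases, and AT1G12470 shares 125 bases at its 3′ end. WT Total libraries held AT1G04953 at 2.28 and 2.00 CPM, those of WT TRAP at 4.88 and 5.98, those of msh1 Total at 2.52 and 2.45 and those of msh1 TRAP at 0.764 and 0.942 CPM. It was thus highest and lowest in the same groups as SLAC1, and reads of the 2 loci cannot be told apart without strand. With the counts of both loci added together, an alternative chosen after the data were seen, the msh1 difference in TRAP was −2.21 (edgeR adjusted p = 4.56e-05) and the interaction −2.01 (edgeR adjusted p = 0.00267).

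ALMT12 (AT4G17970, chromosome 4, 9975365 to 9978023, plus strand), the rapid anion channel gene, was lower in TRAP than in Total libraries. The WT Total libraries had ALMT12 at 5.06 and 5.599 CPM, those of WT TRAP at 2.18 and 3.04, those of msh1 Total at 4.39 and 4.97 and those of msh1 TRAP at 2.04 and 2.00 CPM. Every TRAP value was below every Total value. In msh1, TRAP was 2.31-fold lower (log2 fold change −1.21 ± 0.32, edgeR adjusted p = 0.0155), which did not pass without msh1 Total 1 (−1.29, edgeR adjusted p = 0.0525), msh1 Total 2 (−1.12, 0.101) or msh1 TRAP 2 (−1.21, 0.0584), in a range of 0.00656 to 0.101. In WT the difference was −1.01 ± 0.30 and missed the threshold (edgeR adjusted p = 0.0715), but passed without a filter on low counts (0.0449) and without msh1 TRAP 1 (0.0499), in a range of 0.0449 to 0.366. Neither the msh1 difference in TRAP (−0.38 ± 0.35, edgeR adjusted p = 0.402) nor the interaction (−0.20 ± 0.44, edgeR adjusted p = 0.801) passed.

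The 250 bases before the annotated start of the 4 genes called lower in msh1 TRAP than in msh1 Total are given from the RefSeq TAIR10.1 genome, 5′ to 3′ on the strand of the gene, because these 4 moved the same way. Capitals mark matches, on either strand, to the letters TAAAG, a core of sites for Dof transcription factors that guard cell promoters are known for, and ACGTG, the core of the ABA-responsive element. The windows are chr5:18747407-18747656 (minus strand), chr4:10114544-10114793 (plus), chr1:4259301-4259550 (minus) and chr4:9975115-9975364 (plus).
KAT1: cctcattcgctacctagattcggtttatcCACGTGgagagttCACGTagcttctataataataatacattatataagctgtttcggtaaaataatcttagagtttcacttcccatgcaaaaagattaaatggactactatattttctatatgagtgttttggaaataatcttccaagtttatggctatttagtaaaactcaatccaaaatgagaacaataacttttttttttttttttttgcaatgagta
KAT2: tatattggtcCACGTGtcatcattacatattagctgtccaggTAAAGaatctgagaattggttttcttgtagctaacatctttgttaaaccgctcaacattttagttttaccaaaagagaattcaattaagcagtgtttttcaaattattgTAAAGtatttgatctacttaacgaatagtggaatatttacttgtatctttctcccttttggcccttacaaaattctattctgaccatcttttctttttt
SLAC1: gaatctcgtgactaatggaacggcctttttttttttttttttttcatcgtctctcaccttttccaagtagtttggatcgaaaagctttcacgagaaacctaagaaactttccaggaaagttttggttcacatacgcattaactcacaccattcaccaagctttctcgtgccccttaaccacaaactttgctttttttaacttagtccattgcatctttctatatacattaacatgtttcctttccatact
ALMT12: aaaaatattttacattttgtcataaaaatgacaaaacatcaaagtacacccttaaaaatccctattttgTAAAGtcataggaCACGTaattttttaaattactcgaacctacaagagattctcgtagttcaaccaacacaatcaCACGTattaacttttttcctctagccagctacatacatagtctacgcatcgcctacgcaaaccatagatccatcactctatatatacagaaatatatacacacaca
The KAT2 window held 2 matches to TAAAG and the palindrome CACGTG, which counts once on each strand as ACGTG. The KAT1 window held 3 matches to ACGTG, of which a palindrome gave a pair, and overlaps the locus AT5G06785. The ALMT12 window held 1 match to TAAAG and 2 to ACGTG, and neither word occurs in that of SLAC1. The 2 words did not overlap each other in these windows. Among all 8 genes, 3 windows held ACGTG (KAT1, KAT2 and ALMT12) and 4 held TAAAG (KAT2, ALMT12, HT1 and OST1), where 22.9% and 58.8% of 27443 windows of protein-coding genes did.

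OST1 (AT4G33950, chromosome 4, 16271745 to 16274825, plus strand), the ABA-activated kinase gene, was the only one of the 8 called higher in msh1 TRAP. Libraries of WT Total showed OST1 at 15.8 and 16.0 CPM, those of WT TRAP at 11.2 and 11.5, those of msh1 Total at 16.1 and 13.65 and those of msh1 TRAP at 14.1 and 20.5 CPM. The WT TRAP libraries were the lowest of the 8, and the other 3 groups overlapped. Against WT TRAP, msh1 TRAP was 1.53-fold higher (log2 fold change 0.61 ± 0.21, edgeR adjusted p = 0.0334). This was no longer called without WT Total 1 (edgeR adjusted p = 0.055), WT Total 2 (0.0536), WT TRAP 1 (0.106), WT TRAP 2 (0.104) or msh1 TRAP 2 (0.27 at 0.333), with DESeq2 (0.0697) and with only the groups compared (0.0835), in a range of 0.00254 to 0.333. WT TRAP lay below WT Total by −0.49 ± 0.20 (edgeR adjusted p = 0.202), and the interaction, 0.71 ± 0.29 (edgeR adjusted p = 0.113), passed without msh1 TRAP 1 (0.99, 0.0122). Against msh1 Total, msh1 TRAP stood at 0.22 ± 0.20 (edgeR adjusted p = 0.445), which was 0.54 without msh1 TRAP 1 (0.0401) and −0.08 without msh1 TRAP 2 (0.803).

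HT1 (AT1G62400, chromosome 1, 23089610 to 23091732, plus strand), the CO2 response kinase gene, had few reads throughout. The WT Total libraries had HT1 at 2.87 and 3.32 CPM, those of WT TRAP at 1.80 and 1.82, those of msh1 Total at 2.89 and 3.16 and those of msh1 TRAP at 2.29 and 1.53 CPM. Its Total values all lay above its TRAP values, as for ALMT12, and the genotypes overlapped within each fraction. No contrast passed, with −0.77 ± 0.35 for TRAP over Total in WT (edgeR adjusted p = 0.243) and −0.67 ± 0.36 in msh1 (edgeR adjusted p = 0.189). HT1 had 13 to 48 counts per library.

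MYB60 (AT1G08810, chromosome 1, 2819065 to 2820478, minus strand), the guard cell transcription factor gene, was called in 0 of the 5 contrasts. Libraries of WT Total showed MYB60 at 4.64 and 4.29 CPM, those of WT TRAP at 3.72 and 3.14, those of msh1 Total at 3.36 and 2.68 and those of msh1 TRAP at 2.68 and 2.24 CPM. Its highest values were those of WT Total and its lowest those of msh1 TRAP, and WT TRAP overlapped msh1 Total. Its log2 fold change farthest from 0 was −0.56 ± 0.29 for msh1 Total over WT Total (edgeR adjusted p = 0.361).

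**Figure D3:**
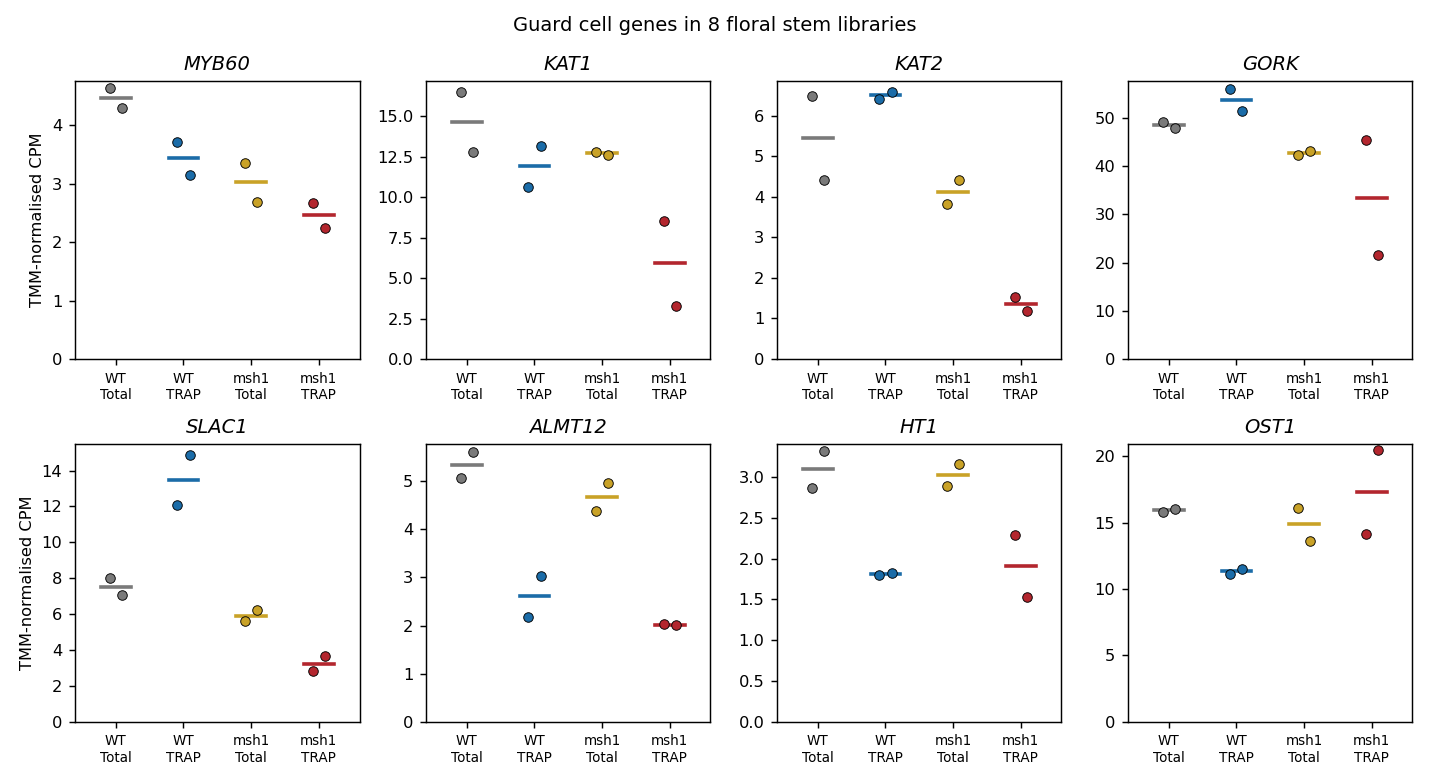
TMM-normalised CPM of each guard cell gene in the 8 libraries (points), with the mean of each group of 2 (bars); each panel has its own axis from 0. KAT2 and SLAC1 are lowest in msh1 TRAP, ALMT12 and HT1 are lower in TRAP than in Total in both genotypes, and the msh1 TRAP points of KAT1 (8.54 and 3.30) and GORK (45.4 and 21.5) are far apart.

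Ratios between genes within a library, which library scaling cannot move, described the same patterns and were not tested. The ratio of SLAC1 to ALMT12, in CPM per kb, was 6.18 and 5.47 in WT TRAP and between 1.40 and 2.04 in the other 6 libraries. The ratio of OST1 to SLAC1 was 0.886 and 0.742 in WT TRAP, 4.83 and 5.37 in msh1 TRAP, and between 1.89 and 2.76 in the Total libraries. The ratio of KAT1 to KAT2 was 1.59 and 1.92 in WT TRAP, between 2.44 and 3.20 in Total, and split in msh1 TRAP into 5.35 and 2.68. The first 2 ratios kept their groups apart in WT TRAP, whereas the msh1 TRAP libraries disagreed on the third.

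**Figure D4:**
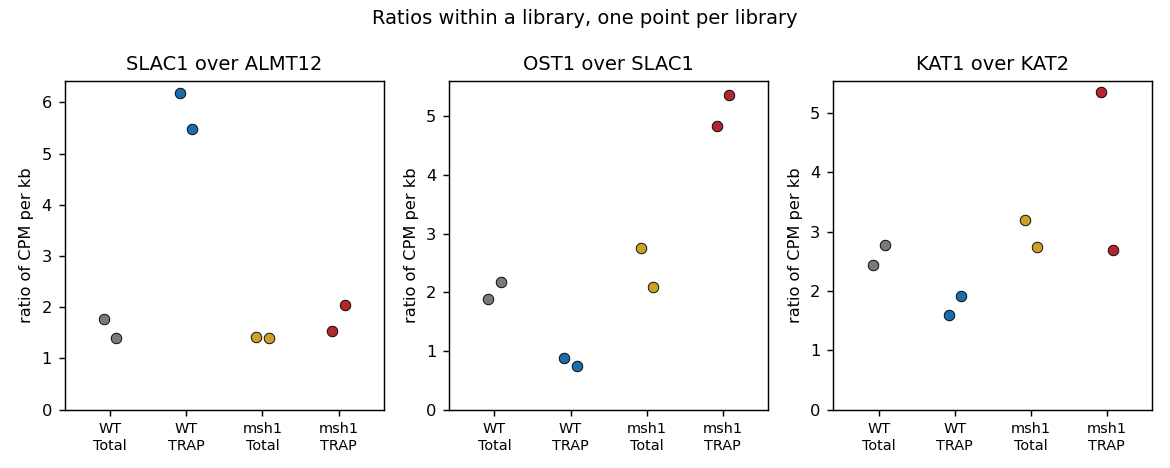
Ratio of CPM per kb between pairs of guard cell genes in each of the 8 libraries (points), axes from 0. SLAC1 over ALMT12 is highest in WT TRAP (6.18 and 5.47), and OST1 over SLAC1 is highest in msh1 TRAP (4.83 and 5.37).

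Over the 8 libraries the log2 CPM of KAT2 and SLAC1 had the highest Pearson's r of the pairs among the 8 genes (0.90), next to ALMT12 with HT1 and KAT1 with GORK (both 0.88), and OST1 with GORK the lowest (−0.81). The libraries share their groups, so these are descriptions of 8 points. Among 7271 other loci that have an annotated symbol and average 5 CPM or more, the 5 with the highest r to the mean profile of the 8 (z-scored log2 CPM) were XEG113, annotated as xyloglucanase 113 (0.99), the amino acid permease gene AAP5 (0.99), the formin gene Fh5 (0.99), the heavy metal ATPase gene HMA4 (0.99) and the potassium transporter gene KUP3 (0.99). The WT Total libraries had KUP3 at 57.5 and 57.0 CPM, those of WT TRAP at 44.9 and 45.4, those of msh1 Total at 45.1 and 47.4 and those of msh1 TRAP at 27.0 and 19.4 CPM. It was thus highest in WT Total and lowest in msh1 TRAP, as MYB60 was.

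Relatives of the channel genes in the same families were lower in msh1 TRAP than in WT TRAP in 4 of 5 Shaker potassium channel genes tested and 2 of 3 SLAC1 homologues, with 0 higher. The counts for these and the following families stand beside 20.8% of all genes lower and 20.8% higher in that contrast. The pollen channel genes AKT5 and SPIK fell by 3.30 and 2.17 on the log2 scale (edgeR adjusted p = 0.00241 and 0.00327), and KAT3, a subunit that pairs with other Shaker channels, by 1.86 (edgeR adjusted p = 0.0415). Libraries of WT Total showed KAT3 at 0.759 and 1.66 CPM, those of WT TRAP at 1.41 and 1.32, those of msh1 Total at 1.40 and 1.81 and those of msh1 TRAP at 0.382 and 0.353 CPM. KAT3 was therefore low in the same libraries as KAT2, at 3 counts in each msh1 TRAP library, so its fitted change depends on the prior count. AKT5 was also 5.64-fold lower in msh1 Total than in WT Total (edgeR adjusted p = 0.0279). No other gene of these 2 families was called there, where 3.89% of all genes passed. Means in WT Total and msh1 Total were 2.73 and 1.20 CPM for SPIK, 1.97 and 0.441 for SLAH1, and 11.4 and 7.43 for SLAH3. The means of KAT3 (1.21 and 1.61) and SLAH2 (1.06 and 1.69) went the other way. The interaction was called for 0 genes of either family, beside 15.6% of all genes. Of the SLAC1 homologues, SLAH3 fell by 0.78 in msh1 TRAP (edgeR adjusted p = 0.0132) and SLAH1, with 0 counts in msh1 TRAP 2, was also called lower (edgeR adjusted p = 0.024). Of 9 other ALMT genes tested 2 were lower and 0 higher, of 8 other SnRK2 genes 1 was higher (SNRK2.3, by 0.60, edgeR adjusted p = 0.00529) and 1 lower (SNRK2.7), and of 4 MYB genes related to MYB60 0 passed in any contrast by edgeR.

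Among other genes of guard cell signalling, most calls also lay in the msh1 TRAP contrasts. Of 6 genes of blue light signalling and proton pumping, 3 were lower in msh1 TRAP than in WT TRAP, which were the kinase gene BLUS1 (−1.27 ± 0.28, edgeR adjusted p = 0.00321) and the proton pump genes AHA2 (−0.81 ± 0.20) and AHA1 (−0.63 ± 0.18). Of 7 genes of the CO2 response, the carbonic anhydrase gene CA4 was higher (1.04 ± 0.15, edgeR adjusted p = 0.000224) and the kinase gene MPK12, whose protein inhibits HT1, lower (−0.83 ± 0.23, edgeR adjusted p = 0.0118). Of 19 ABA and reactive oxygen genes tested, 5 were higher and 6 lower. The ABA receptor genes PYL1, PYL4 and PYL5 were higher by 1.62, 1.43 and 1.42, and the transporter genes ABCG40 and ABCG22 and the receptor kinase gene GHR1, whose protein acts on SLAC1, fell by 1.27, 1.15 and 0.86. Of 9 genes of vacuolar and other transport, 4 were lower and 0 higher, among them the vacuolar exchanger gene NHX2 (−0.90 ± 0.20). Each of these counts stands beside 20.8% of all genes higher and 20.8% lower in that contrast.

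**Figure D5:**
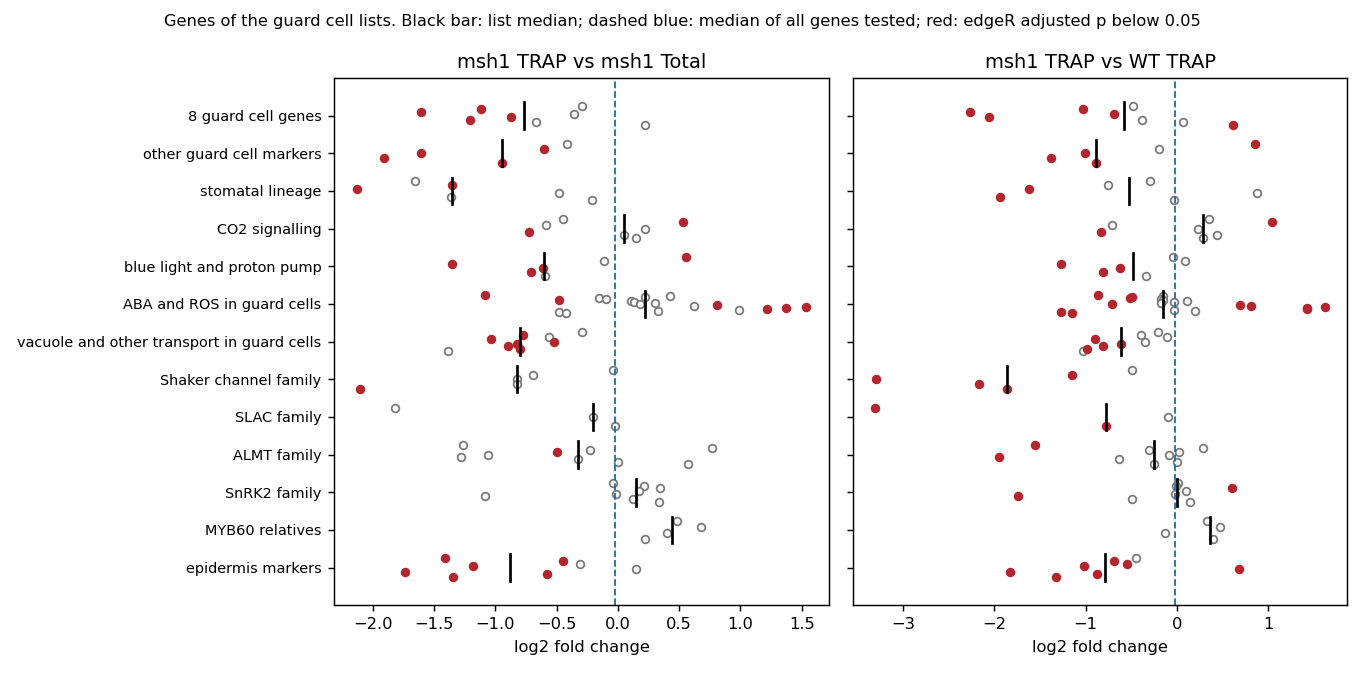
Log2 fold change of each tested gene in the guard cell lists and the epidermis markers for msh1 TRAP against msh1 Total and against WT TRAP; black bars are list medians, the dashed line the median of all genes tested, and red points have an edgeR adjusted p below 0.05. The medians of the 8 guard cell genes are −0.77 and −0.58.

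Markers of neighbouring cell types were also called in these contrasts. In msh1 TRAP against msh1 Total, 6 of 8 epidermis, 3 of 5 phloem and 3 of 5 xylem markers were lower. So were 4 of 5 other guard cell markers and 2 of 6 stomatal lineage genes tested, and 0 genes of these lists were higher. Of 5 photosynthetic tissue markers, 1 was higher and 0 lower. These counts stand beside 12.1% of all genes lower and 14.1% higher in that contrast. The marker counts for msh1 TRAP against WT TRAP stand beside 41.6% of all genes called, 20.8% in each direction. Of 8 epidermis markers, 6 were lower in msh1 TRAP than in WT TRAP and 1 higher. Their summed level was 1371 and 1592 CPM for msh1 TRAP, 1642.5 and 2150 for WT TRAP, and 2069 to 2328 for Total. LTP1, the marker called higher (by 0.68 on the log2 scale), made up 724 and 1060 CPM of that sum in msh1 TRAP. In WT TRAP LTP1 made up 475 and 635 CPM, so the sum does not describe the other markers. Of 5 genes listed as other guard cell markers, 3 were lower in msh1 TRAP than in WT TRAP. These were the myrosinase genes TGG2 and TGG1 and the cutin gene CYP86A2, lower by 1.38, 1.01 and 0.88 on the log2 scale. AT1G22690, listed as GC1 and annotated as a gibberellin-regulated family protein, was higher by 0.86 (edgeR adjusted p = 0.0133). In WT, AT1G22690 was lower in TRAP than in Total (−1.02 ± 0.23, edgeR adjusted p = 0.0265). It was the 1 gene of these 5 called there, beside 5.07% of all genes. Whether these 5 genes mark guard cells alone in the stem was not tested. The summed level of these 5 was 785 and 953 CPM in msh1 TRAP, 1713 and 2279 CPM in WT TRAP, and between 2599 and 3038 CPM for Total. Most of that sum was TGG2, at 419 and 524 CPM in msh1 TRAP and 1053 and 1396 CPM in WT TRAP, and TGG1, at 295 and 360 CPM and at 562 and 759 CPM, so it does not describe the other 3 genes. FAMA did not pass between msh1 TRAP and WT TRAP (−0.19 ± 0.20, edgeR adjusted p = 0.475) and was lower in msh1 TRAP than in msh1 Total (−0.60 ± 0.20, edgeR adjusted p = 0.0398). Of 6 stomatal lineage genes tested of 9, 2 were lower in msh1 TRAP than in WT TRAP. These were POLAR (−1.94 ± 0.66, edgeR adjusted p = 0.0306) and SDD1 (−1.62 ± 0.40, edgeR adjusted p = 0.00622). The summed level of the 9 was 37.1 and 34.1 CPM in msh1 TRAP and 38.6 to 59.0 CPM elsewhere. Most of it in msh1 TRAP was SCRM, at 25.6 and 26.3 CPM, against 23.9 and 29.1 CPM in WT TRAP. The sum therefore does not describe the other lineage genes. No marker of these 3 lists was at 0 in all libraries, EPF1 being at 0 counts in msh1 TRAP 2. In the same contrast 3 of 5 phloem markers were lower and 1 higher, 3 of 5 xylem markers lower and 0 higher, and 2 of 5 photosynthetic tissue markers lower and 2 higher. The part of these cell types in the changes of the 8 genes was not tested.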

How the data were processed

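For each library the authors deposited raw, unnormalized read counts by locus. The submitters' processing notes name TAIR10 and DESeq2; the aligner, the counter and its use of strand are not stated in the labels used here. Per the labels' protocols, libraries were TruSeq RNA v2, which does not mark strand. The last 5 lines of a file name no gene and were left out: reads in no gene made up 38.5 to 41.68% of listed counts, reads without a unique alignment 12.35 to 18.95% and ambiguous reads 0.16 to 1.12%, so close paralogs may have lost reads.

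Counts were tested with edgeR 4.0.16 (R 4.3.3): filterByExpr, TMM, and a quasi-likelihood F test in 1 fit of all 8 libraries and 4 groups without a replicate block (4 residual degrees of freedom), with Benjamini-Hochberg adjustment over 21202 genes at 0.05. The procedure was checked on simulated counts for WT TRAP against WT Total only, with changes put alike into TRAP of both genotypes. That check did not cover the other contrasts. Levels are TMM-normalised CPM, mean ± SD with n = 2. The SE of a log2 fold change was derived from the quasi-likelihood F test, so it includes spread between libraries. The floor of 3 counts covers counting error only. Lengths, coordinates and promoter windows come from the RefSeq TAIR10.1 annotation. Alternatives were DESeq2 1.42.0, other size factors, no filter, the replicate block, only the groups compared, a length trend removed, and each library left out.

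The 8 genes and the lists were chosen with earlier results of these data known. Besides the 8, the genes named were up to 3 per list, contrast and direction with the largest called change, and the 5 loci most alike in profile. FAMA, EPF1, SCRM, AT1G04953, AT1G12470 and AT5G06785 were singled out after their values or positions were seen.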

Additional observations from a re-analysis of the deposited data

Results flagged for a closer look

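The TRAP to Total difference of SLAC1 and KAT2 differed between the genotypes by the interaction test. For SLAC1 the interaction was −1.72 ± 0.34 (edgeR adjusted p = 0.00783), with both TRAP values above both Total values in WT and below them in msh1. For KAT2 it was −1.87 ± 0.45 (edgeR adjusted p = 0.0177). Of all genes tested, 15.6% passed the same test. Seed, epidermis and guard cell marker levels differed between the same groups, and their part was not tested.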

How the results depend on the processing

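Of the log2 fold changes of the 8 genes under the alternatives, 528 kept their direction and side of the threshold, 44 lost and 7 gained a call, and 14 changed sign, all of them values that had not passed. Among the 8 genes, WT TRAP against WT Total gave 1 call, which became 2 with no filter, 0 with DESeq2, 0 with the replicate block and 0 to 2 with a library left out. The count of 4 in msh1 TRAP against msh1 Total became 2 with only the groups compared and 0 to 5 with a library left out. The count of 5 in msh1 TRAP against WT TRAP became 3 with the length trend removed and 2 to 5 with a library left out. The interaction count of 2 became 1 with DESeq2, 1 with the length trend removed and 1 to 5 with a library left out; DESeq2 gave MYB60, HT1, ALMT12 and KAT2 no adjusted p there.

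Over all genes, WT TRAP against WT Total gave 1076 calls, 2011 with no filter, 1871 with only the groups compared and 167 to 2310 with a library left out; the share of higher calls was 67.1%, and 56.9% with no filter. The other counts were 5553 for msh1 TRAP against msh1 Total (3548 with only the groups compared, 2218 to 7114 with a library left out), 824 for msh1 Total against WT Total (1770 with no filter, 2708 with only the groups compared, 219 to 1650), 8818 for msh1 TRAP against WT TRAP (5835 to 9517) and 3312 for the interaction (1719 with the length trend removed, 1009 to 5575). A group left with 1 library is assumed to vary like the others.

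The changed signs, with each range over libraries left out, were as follows. GORK was −0.037 in WT TRAP against WT Total with the length trend removed. In msh1 TRAP against msh1 Total, GORK (−0.91 to 0.075) and OST1 (−0.083 to 0.54) changed sign without msh1 TRAP 2. In msh1 Total against WT Total, HT1 (−0.13 to 0.082) did so without WT Total 2 or msh1 Total 1 (0.031), and OST1 (−0.22 to 0.022) without msh1 Total 2. In msh1 TRAP against WT TRAP, HT1 (−0.17 to 0.29) did so without msh1 TRAP 1. In the interaction, MYB60 was −0.21 with the length trend removed and changed sign (−0.072 to 0.25) without WT TRAP 2, msh1 Total 2 or msh1 TRAP 1, ALMT12 (−0.40 to 0.073) without WT TRAP 2, and HT1 (−0.17 to 0.32) without WT Total 2 or msh1 TRAP 1. The cause was not tested.

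The labels do not say that replicate numbers pair the libraries. Deviations of same-numbered libraries correlated at −0.33 between WT Total and WT TRAP, at −0.30 between msh1 Total and msh1 TRAP, and at −0.05 to 0.14 between the other groups, and no crossed pairing was fitted. With the replicate block SLAC1 in WT TRAP against WT Total was 0.84 (edgeR adjusted p = 0.0688), and no other call of the 8 genes changed. HT1, MYB60, ALMT12 and KAT2 had the fewest reads of the 8.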
